A study of Mus musculus with 12 samples.

Results

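The genes described here are 9 regulators of the cell cycle: the cyclin genes Ccnd3, Ccne1 and Ccne2, the kinase genes Cdk2 and Cdk1, the genes Rb1 and E2f1 of the restriction point, and the inhibitor genes Cdkn1a and Cdkn1b. They were chosen by name, and each was taken as its RefSeq span on mm10 with 10 kb on each side. All 9 were found, of 21883 protein-coding genes in the reference. The study used chromatin immunoprecipitation sequencing (ChIP-seq) to map the transcription factor KLF4 and the histone mark H3K27ac, which is found at active promoters and enhancers, in 12 mouse samples of 7 groups. The embryonic stem cells (ESCs) were of the V6.5 line and carried a lentiviral Cas9 under a doxycycline-inducible promoter, with guides that per the labels were directed at Klf4 alone or jointly at Klf2, Klf4 and Klf5. The 2 ESC groups with ChIP were the uninduced cells (0 h, labelled WT, 2 samples) and cells after 24 h of doxycycline (24 h, labelled KLF4 KO, 2 samples). Both carried the Cas9 cassette, came from manually picked clones and grew on irradiated feeder cells with LIF, with 2i given as the culture condition. The titles call the ESC line TKO, so the labels do not settle which of the 3 genes were cut. Induced pluripotent stem cells (iPSCs), also labelled as grown in 2i, gave 2 samples for KLF4 and 2 for H3K27ac, and had no knockout in their labels. The other 4 samples were inputs.

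D-type cyclins with CDK4 and CDK6, and E-type cyclins with CDK2, phosphorylate the retinoblastoma protein RB1, which then releases E2F factors that switch on genes for DNA synthesis. CDK1 with A- and B-type cyclins drives mitosis, and the inhibitors p21 (Cdkn1a) and p27 (Cdkn1b) hold cyclin-CDK complexes back. Mouse pluripotent cells grown in serum are known for a short G1 phase with high CDK2 activity and little inhibition by RB1. Whether this holds under the culture condition given above for the ESCs and iPSCs was not tested. KLF4 is a zinc-finger factor of the pluripotency network that binds GC-rich elements, and its activation of Cdkn1a has been described in other cells.

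In iPSCs, KLF4 peaks lay at listed start sites of 5 of these genes. A start in the RefSeq promoter table (GRCm38.p6, the primary assembly of mm10) was listed for 7 genes. Of these, 5 had a KLF4 peak touching a window of 300 bases at a start (250 before it and the rest after). They were Ccnd3, Ccne1, Cdk2, Cdk1 and Cdkn1a. Of 17491 protein-coding genes with such a window, 23.0% had one, and this share takes in genes without measurable ESC acetylation. Cdkn1b had no KLF4 peak there. E2f1 had none either, but its listed start (154569426, minus strand) lies inside its span, which ends at 154569892. The E2f1 window is thus within the gene, and a KLF4 peak began 35 bp beyond that end. Ccne2 and Rb1 have no entry in that table. The 250 bases before the start are printed for these 5 genes, since they carry the KLF4 peaks, and for Cdkn1b as a start without one. Sequences run 5′ to 3′ on the gene's strand, and capitals mark each match to GGGNGTG, the core of the KLF motif, or to the longer core GGGNGNGG, on either strand.
Ccne1 (chr7:38107491-38107740, minus strand): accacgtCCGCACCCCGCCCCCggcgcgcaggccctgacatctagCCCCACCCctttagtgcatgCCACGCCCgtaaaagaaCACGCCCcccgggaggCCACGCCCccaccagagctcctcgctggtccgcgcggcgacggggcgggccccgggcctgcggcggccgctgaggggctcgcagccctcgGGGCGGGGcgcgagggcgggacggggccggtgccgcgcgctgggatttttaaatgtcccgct
Cdk2 (chr10:128705052-128705301, minus strand): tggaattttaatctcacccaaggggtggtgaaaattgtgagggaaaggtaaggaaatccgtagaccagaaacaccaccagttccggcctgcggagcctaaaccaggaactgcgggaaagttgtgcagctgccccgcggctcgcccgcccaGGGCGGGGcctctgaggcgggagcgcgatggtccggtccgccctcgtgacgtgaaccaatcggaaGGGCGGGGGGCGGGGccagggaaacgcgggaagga
Cdk1 (chr10:69352913-69353162, minus strand): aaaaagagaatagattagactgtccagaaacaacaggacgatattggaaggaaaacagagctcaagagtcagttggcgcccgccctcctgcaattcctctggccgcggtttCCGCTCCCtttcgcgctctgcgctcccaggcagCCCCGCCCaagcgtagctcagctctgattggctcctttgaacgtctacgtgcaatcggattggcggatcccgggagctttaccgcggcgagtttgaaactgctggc
Ccnd3, inner start (chr17:47593217-47593466, plus strand): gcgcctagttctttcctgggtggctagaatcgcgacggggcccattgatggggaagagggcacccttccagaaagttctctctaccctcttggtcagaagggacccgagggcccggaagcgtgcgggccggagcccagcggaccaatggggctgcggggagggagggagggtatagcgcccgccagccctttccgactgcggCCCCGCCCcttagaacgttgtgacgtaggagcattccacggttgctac
Cdkn1a, inner start (chr17:29093519-29093768, plus strand): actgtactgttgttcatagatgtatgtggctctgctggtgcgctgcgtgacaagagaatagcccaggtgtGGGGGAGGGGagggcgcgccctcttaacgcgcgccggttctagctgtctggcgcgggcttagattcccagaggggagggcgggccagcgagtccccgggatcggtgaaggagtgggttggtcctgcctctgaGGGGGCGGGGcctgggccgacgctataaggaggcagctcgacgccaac
Cdkn1b (chr6:134920151-134920400, plus strand): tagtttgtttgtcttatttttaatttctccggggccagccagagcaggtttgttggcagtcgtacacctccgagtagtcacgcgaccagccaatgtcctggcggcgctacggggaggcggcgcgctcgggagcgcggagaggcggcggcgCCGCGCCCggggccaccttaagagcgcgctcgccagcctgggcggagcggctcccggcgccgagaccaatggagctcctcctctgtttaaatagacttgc

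The KLF4 peak covered all 250 of these bases at Cdk1 and at the inner start of Cdkn1a, 149 at Ccne1, 140 at the inner start of Ccnd3 and 133 at Cdk2. Ccne1 was the 1 gene of the 7 with a GGGNGTG match, printed as CACGCCC. It had 3 such matches, all of them inside the KLF4 peak. Of all 17491 genes with a window, 31.5% held a match. The longer core GGGNGNGG matched at all 7 genes, with 7 matches at Ccne1, 4 each at Cdk2 and at the inner start of Cdkn1a, 2 at Cdk1 and 1 each at the inner start of Ccnd3 and at Cdkn1b. It was also present in 52.9% of all 21262 promoters, in 82.8% of those touched by a KLF4 peak and in 45.0% of the others. By its letters it can contain the GC box GGGCGG, which was in 42.6% of promoters and matched at all 7 genes (for Cdkn1a at the inner start alone), whereas no GGGNGTG match overlapped a GC box. Among the windows scanned, that of Cdk1 stood apart in other letters. It alone of the 7 held the E2F core TTNGCGC (2 matches, 6.56% of promoters) and the cell cycle element TTTGAA (2 matches, 14.5% of promoters), and it had 3 matches to CCAAT (35.4% of promoters). CCAAT was also found once at Cdk2 and at the inner Ccnd3 start, and 2 times at Cdkn1b. The GC content of the printed sequences ran from 56.4% at Cdk1 to 76.0% at Ccne1, above the median of 55.6% over all promoters. A match describes the letters in a window and is not a measured site. The E2f1 window lies inside the gene span, so the counts over 7 genes do not cover the bases beyond its upper end.

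**Figure D1:**
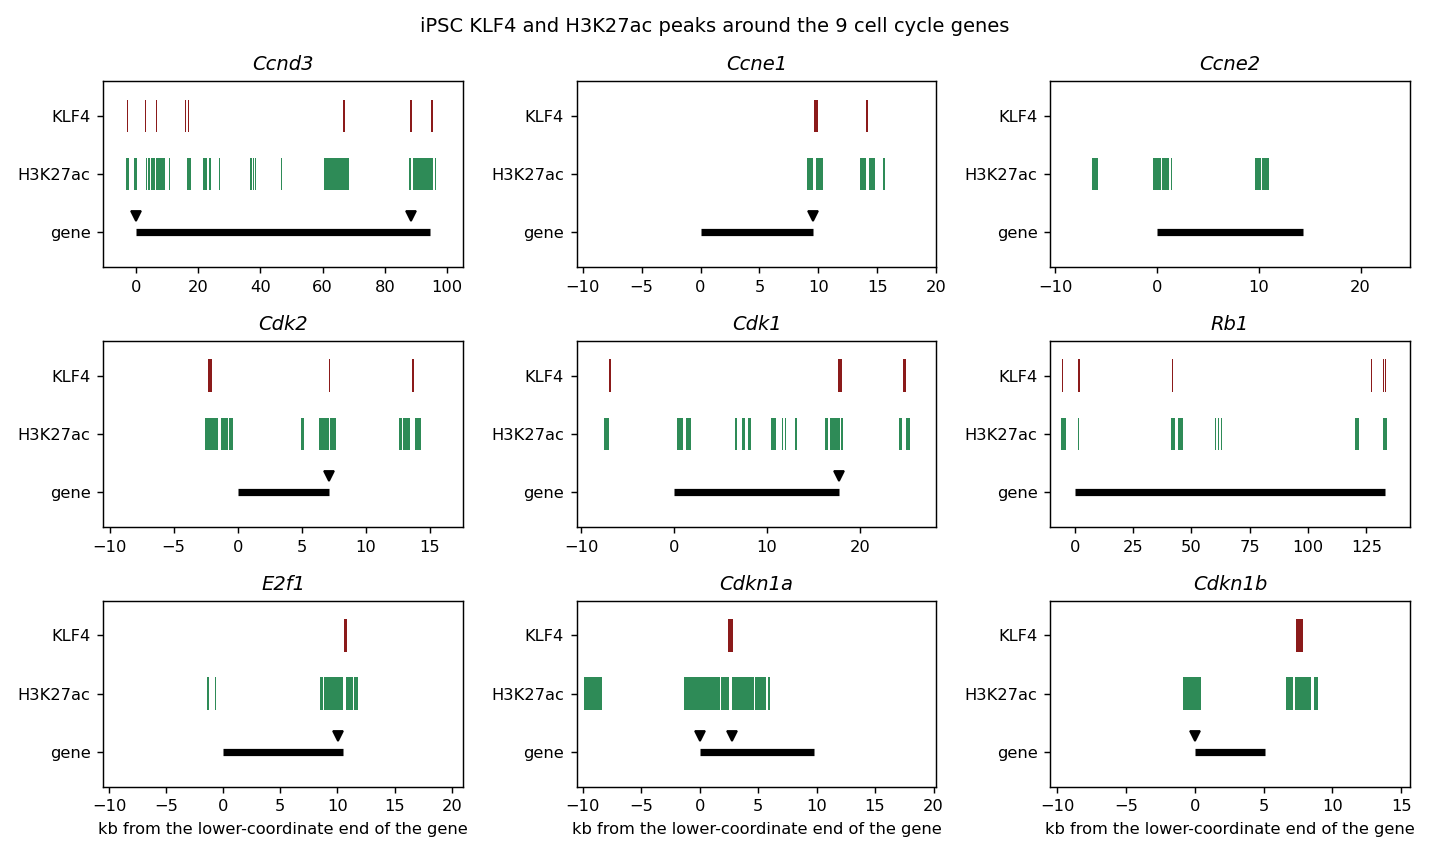
Positions of iPSC KLF4 peaks (red) and iPSC H3K27ac peaks (green) around each gene, in kb from the end of the gene with the lower coordinate. The black bar is the gene span and triangles are start sites in the RefSeq table, very narrow peaks are widened to be visible, and KLF4 peaks stand at or beside a start of Ccne1, Cdk2, Cdk1, Ccnd3, Cdkn1a and E2f1, and Ccne2 has none.

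Counted over the span and 10 kb flanks, 8 of the 9 genes had an iPSC KLF4 peak, against 52.6% of all protein-coding genes and 74.7% of those with measurable ESC acetylation. All 9 had an iPSC H3K27ac peak, against 59.7% and 91.9%. Longer spans hold more peaks, and these shares are not adjusted for span length. Without flanks, 5 of the 9 held a KLF4 peak, and the share of all genes was not taken for that setting. At Ccne1 and E2f1 the nearest KLF4 peak lay 102 bp and 35 bp beyond the span. Of the 25 KLF4 peaks around the genes, 19 (76.0%, 95% exact binomial interval for counting error 54.9 to 90.6) overlapped an H3K27ac peak by 1 bp or more, against 48.7% (48.0 to 49.4) of all 21563 KLF4 peaks. The 25 peaks all lie in or near genes with iPSC H3K27ac, while the 21563 were not limited to peaks near genes. The 2 shares are thus of unlike sets, and Ccnd3 and Rb1 hold 8 and 6 of the 25. In the other direction, 21 of the 102 H3K27ac peaks around the 9 genes (20.6%, 13.2 to 29.7) met a KLF4 peak, against 19.3% of all 55466. In 1 of the 25 cases each peak covered 50% or more of the other. At the inner start of Cdkn1a the KLF4 peak bridged the space from an H3K27ac peak that ended at 29093533 to one that began at 29093725.

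Each ESC group and each iPSC mark was deposited as 1 list, so no error between replicates can be given and the read depth is unknown. The ESC lists hold bins of 10 kb, 49460 at 0 h and 47307 at 24 h, of which 26812 and 25611 carry an H3K27ac signal, with medians of 4.65 and 4.05. The signal has no stated unit or scaling. Both times had a value in 22739 bins, where the median log2 of the 24 h over the 0 h signal was -0.23, a ratio of 0.854, and changes are given relative to that median. All 6 pluripotency markers (Pou5f1, Sox2, Nanog, Esrrb, Zfp42 and Klf4) had signal at both times, with a summed mean signal of 55.2 at 0 h and 41.2 at 24 h. Each mean is over the bins valued at that time, so the 2 sums are not from the same bins. At 0 h and 24 h these were 3 and 4 bins at Zfp42 and at Klf4, and 10 and 11 at Esrrb. The relative values of the 6 markers, from bins valued at both times, were all below 0, from -0.21 to -0.05, with a median of -0.09. Of 8 fibroblast markers, which the feeder cells would carry, Twist2, Col1a2 and Thy1 had no signal at either time. The summed mean signal of the other 5 was 26.6 at 0 h and 26.7 at 24 h, with 9 and 7 valued bins at Fn1. Their relative log2 values ran from -0.18 at Col1a1 to 1.06 at Vim. The part of either marker list in the values below was not tested.

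H3K27ac around the 9 genes was present at both times. All 9 had bins valued at 0 h and at 24 h, together 52 listed bins, of which 41 had a value at both times, 2 at 0 h alone, none at 24 h alone and 9 at neither. The threshold for a change was a relative value of 0.32 log2. No gene of the 9 reached it in either direction, against 8.06% of the 11239 measured genes lower and 9.45% higher. The 5 cyclin and kinase genes all had a mean relative value below 0, with a median of -0.17. Rb1, E2f1, Cdkn1a and Cdkn1b were all above 0, with a median of 0.10. Over all measured genes 46.7% were below 0, the median was 0.02 and the SD was 0.27. This division by role was seen after the values and was not tested. It did not hold at the other flanks. Without flanks Cdk1 was at 0.085 and E2f1 at -0.024, and with 25 kb flanks Ccne2 was at 0.062 and Cdkn1b at -0.087. The division also depends on the centring. In the signal as deposited all 9 genes were lower at 24 h, against 83.7% of measured genes. The 4 genes above 0 turned to between -0.16 and -0.07. The 5 cyclin and kinase genes then lay past 0.32 log2 lower, against 29.5% of measured genes. With centring, 1 gene passed the threshold under some other settings, Ccne2 without flanks, with 1 bin per run of equal values or with centring on bins without KLF4, and Cdk2 at its start bin alone.

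**Figure D2:**
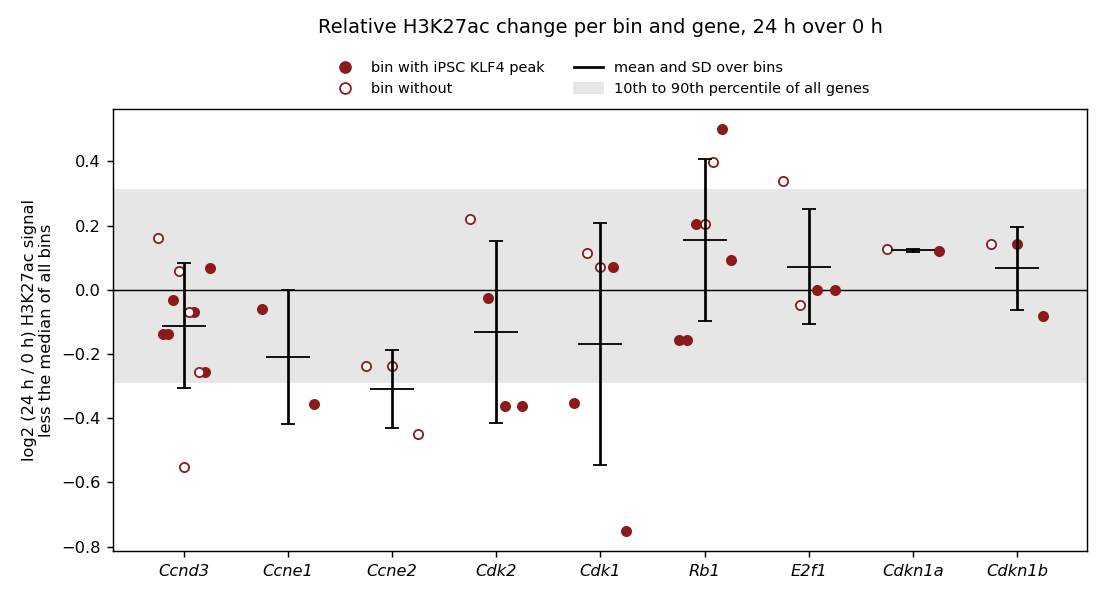
Relative log2 H3K27ac change (24 h over 0 h, less the median of all bins) for each 10 kb bin, filled where the bin holds an iPSC KLF4 peak, with the mean and SD over bins per gene. The grey band spans the 10th to the 90th percentile of all measured genes (-0.29 to 0.31), and of the 9 means only that of Ccne2 (-0.31) lies outside it.

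Ccne2 (chromosome 4, 11190433 to 11204779), which encodes cyclin E2, an activator of CDK2, had the lowest mean, -0.31 ± 0.12 (SD over 3 bins), at percentile 8.74 of all genes. The bins from 11180001 and 11190001 shared a signal of 6.00 at 0 h and 4.35 at 24 h, and the bin from 11200001 had 4.29 and 2.69. All 3 were therefore lower at 24 h by more than the median bin. The next bin was listed without a signal. Ccne2 was also the gene without a KLF4 peak, while it had 6 iPSC H3K27ac peaks covering 3381 bp. The neighbouring Ints8 touches 3 of its 4 listed bins, and a flank of 25 kb turned the mean to 0.06.

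Ccne1 (chromosome 7, 38097984 to 38107490), the gene of cyclin E1, had a mean of -0.21 ± 0.21 (SD over 2 bins). The bin from 38100001, which holds the start, had 4.53 at 0 h and 3.71 at 24 h. The bin from 38110001, upstream of it, had 6.16 and 4.11, a relative value of -0.36 against -0.06 at the start. The acetylation upstream thus fell by more than that over the start in this pair of lists. Each of these bins held 1 KLF4 peak, at 38107592 to 38107951 over the 3 CACGCCC matches printed above and at 38112057 to 38112217, and both peaks overlapped an H3K27ac peak in iPSCs. The flank also touches a bin from 38080001 with 2.03 at 0 h and no value at 24 h, in which 2 further KLF4 peaks lie beyond the flank.

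Ccnd3 (chromosome 17, 47505051 to 47599689) encodes cyclin D3, a partner of CDK4 and CDK6, and had the most iPSC H3K27ac of the 9 genes, 34 peaks covering 23659 bp. Its mean was -0.11 ± 0.20 (SD over 11 bins), with 8 bins below 0 and 3 above. The highest signal was inside the gene, 10.9 at 0 h and 8.92 at 24 h in the neighbouring bins from 47560001 and 47570001. The bins from 47500001 and 47510001, at the outer start, had 7.54 and 5.85. The bins from 47580001 and 47590001, the latter with the inner start, had 6.06 and 4.33, a relative value of -0.26 against -0.14 at the outer start. The lowest relative value, -0.55, was in the bin from 47540001 (4.65 and 2.71), which holds no KLF4 peak. The remaining bins had 4.98 and 4.76, 5.27 and 4.41, 4.13 and 3.67, and 5.77 and 5.17. In iPSCs Ccnd3 had 8 KLF4 peaks, 6 of them on an H3K27ac peak. The 2 KLF4 peaks without one were at 47520847 to 47520965 and over the inner start at 47593327 to 47593671. Taf8 reaches into the bins at the lower end and Bysl into those at the upper end.

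Cdk2 (chromosome 10, 128697938 to 128705051), the kinase gene partnered by the E-type cyclins, had a mean of -0.13 ± 0.28 (SD over 4 bins). The bin of the start, from 128700001, and the bin from 128710001 shared 5.86 at 0 h and 3.89 at 24 h, a relative value of -0.36. The bin from 128690001 had 5.37 and 4.51, and the bin from 128680001 had 3.49 and 3.47, a relative value of 0.22. The bin of the start was thus past 0.32 log2, a threshold set for gene means and not for single bins. Over all bins with a KLF4 peak the SD was 0.35, so a value of this size is within the common spread of bins. In contrast 1 bin, from 128680001, was higher than the median bin. Of its 3 KLF4 peaks, that over the start (128705049 to 128705184) was 136 bp wide and fitted between H3K27ac peaks that ended at 128705037 and began at 128705187. Of the 3, only that at 128695636 to 128695944 overlapped an H3K27ac peak. Pmel shares 3 of the 4 bins.

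Cdk1 (chromosome 10, 69335146 to 69352912), the mitotic kinase gene, had a mean of -0.17 ± 0.38 (SD over 5 bins) with low values in its flanks. The 3 bins over the gene had 4.00 at 0 h and 3.70 at 24 h, and 5.75 and 5.16 in the 2 others including the start, with relative values of 0.11, 0.07 and 0.07. The outer bins had 4.32 and 2.89 (relative value -0.35) and 4.88 and 2.48 (-0.75, the lowest of all 41 bins). Without flanks the mean was 0.09, so the sign of the Cdk1 value depends on the flank. Each outer bin held a KLF4 peak, at 69328106 to 69328343 and, across the edge of the bins, at 69359824 to 69360090. The KLF4 peak at the start ran from 69352823 to 69353206 and overlapped an H3K27ac peak.

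Rb1 (chromosome 14, 73192858 to 73325951), the gene of the retinoblastoma protein, had the highest mean of the 9, 0.16 ± 0.25 (SD over 7 bins). The bins from 73230001 and 73240001, inside the gene and shared with Lpar6, had 10.2 at 0 h and 10.1 at 24 h, a relative value of 0.21. The bin from 73250001 had 5.04 and 5.67, and that from 73310001 had 4.47 and 5.40, with relative values of 0.40 and 0.50. These were 2 of the 3 bins around the 9 genes with a higher deposited signal at 24 h than at 0 h. The bins from 73180001 and 73190001, at the lower end next to Rcbtb2, had 10.2 and 7.79, and the bin of the upper end had 2.17 and 1.97. The other 7 listed bins had no value at either time. Rb1 had 6 KLF4 peaks, 5 of them on an H3K27ac peak, of which those at 73325003 to 73325511 and 73325980 to 73326281 flank its upper end.

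E2f1 (chromosome 2, 154559400 to 154569892), which encodes a factor held by RB1, had a mean of 0.07 ± 0.18 (SD over 4 bins). The bins from 154560001 and 154570001, over the gene body and beyond its upper end, shared 4.95 at 0 h and 4.23 at 24 h, a relative value of 0.00. The bins toward Necab3 had 3.50 and 2.89 (relative value -0.05) and 3.76 and 4.06 (0.34). The outermost bin was thus the only one clearly above 0, and without flanks the mean was -0.02. The 1 KLF4 peak, at 154569927 to 154570271, began 35 bp beyond the upper end of the span, 501 bp from the start in the RefSeq table, and overlapped an H3K27ac peak.

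Cdkn1a (chromosome 17, 29090979 to 29100722), the p21 gene, had a mean of 0.12 with an SD of 0.004 over 2 bins. The bin from 29080001 had 9.58 at 0 h and 8.93 at 24 h, and the bin over the gene, from 29090001, had 6.67 and 6.20. Both thus moved alike and kept more of their signal than the median bin. The flank also touches a bin from 29110001, in Rab44, with 7.24 at 0 h and no value at 24 h, although it stayed listed at 24 h. An iPSC KLF4 peak lies in that bin beyond the flank. The KLF4 peak of Cdkn1a, at 29093423 to 29093822, covered the inner start printed above and overlapped H3K27ac, while the outer start had none. Its 7 H3K27ac peaks covered 8321 bp.

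Cdkn1b (chromosome 6, 134920401 to 134925525), the p27 gene, had a mean of 0.07 ± 0.13 (SD over 3 bins). The bins from 134910001 and 134920001, the latter with the gene, shared 7.08 at 0 h and 6.67 at 24 h, a relative value of 0.14. The bin from 134930001 had 6.27 and 5.06, a relative value of -0.08. Its 1 KLF4 peak, at 134927744 to 134928282, was 539 bp wide, the widest of the 25, lay 2219 bp beyond the gene and overlapped an H3K27ac peak. With a flank of 25 kb the mean was -0.09.

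**Figure D3:**
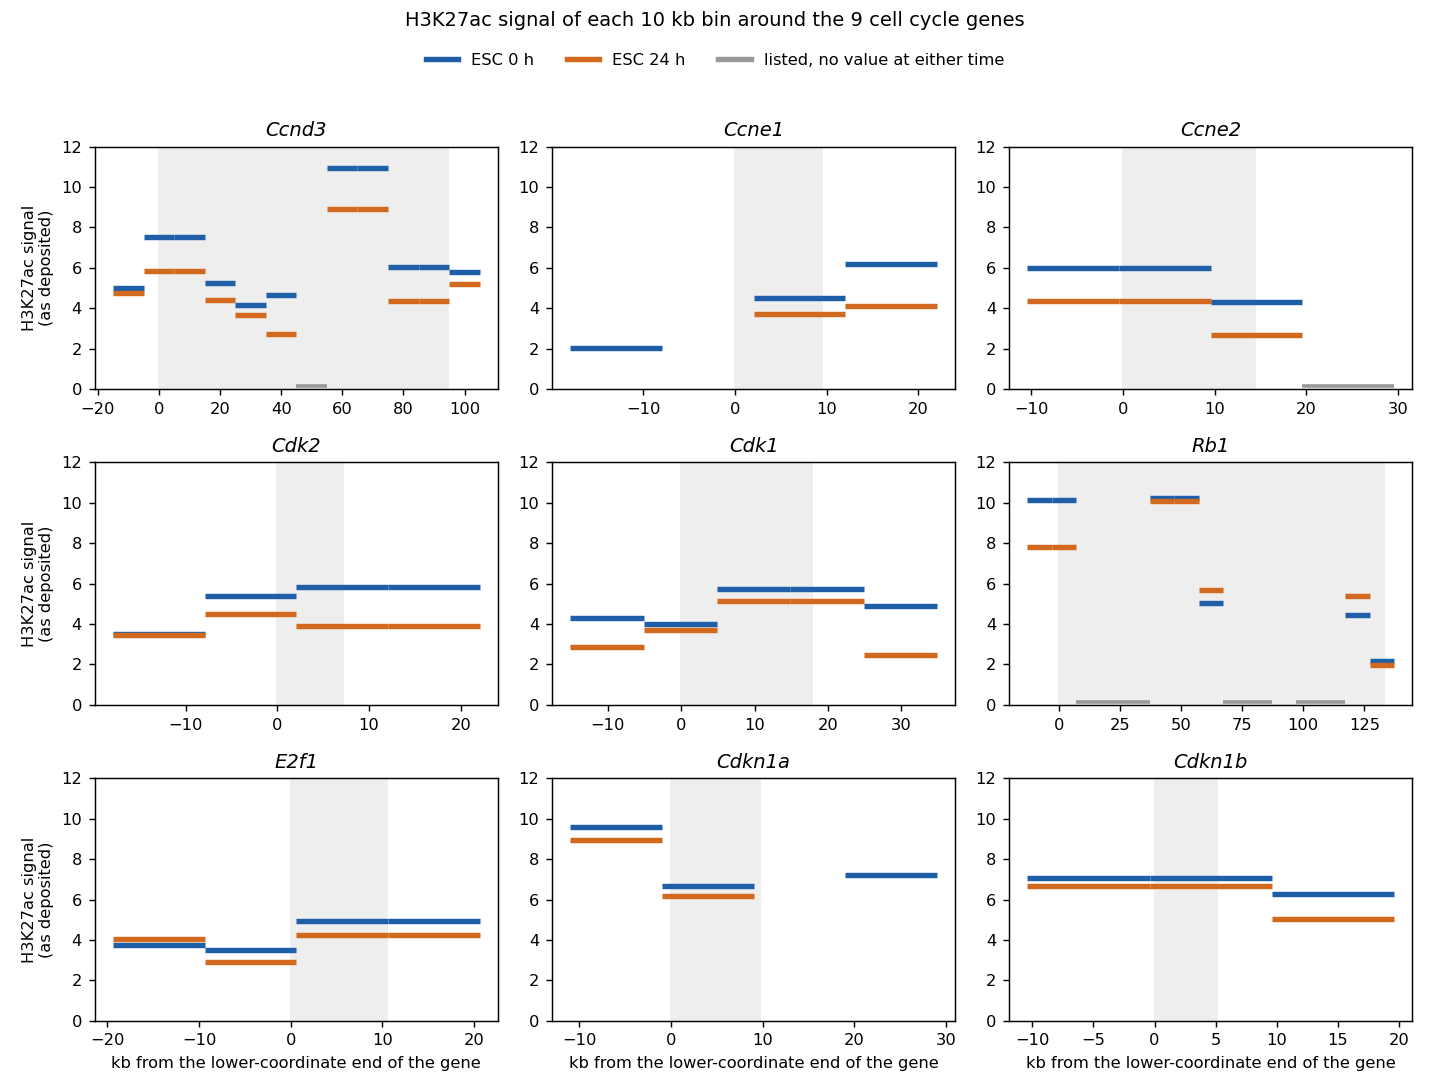
H3K27ac signal as deposited for each 10 kb bin around the 9 genes at 0 h (blue) and 24 h (orange), by distance in kb from the lower-coordinate end of the gene, with the gene span in grey and bins listed without a value at either time as grey bars near 0. The 24 h signal is lower than the 0 h signal in all but 3 of the bins valued at both times, the exceptions being 2 bins of Rb1 and 1 bin of E2f1.

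The signal per 10 kb bin at 0 h, as the mean and SD over valued bins, was highest at Cdkn1a (7.83 ± 1.54), Rb1 (7.50 ± 3.48), Cdkn1b (6.81 ± 0.47) and Ccnd3 (6.72 ± 2.34). These 4 were at percentiles 85.1 to 93.0 of all genes with signal. Ccne2 (5.43 ± 0.99), Cdk2 (5.14 ± 1.13) and Cdk1 (4.94 ± 0.80) followed, and E2f1 (4.29 ± 0.77) and Ccne1 (4.24 ± 2.08) were lowest, at percentiles 35.2 and 33.7. Each gene lay within 1 SD of the next in this order, taking the larger SD of the pair.

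The 24 bins with an iPSC KLF4 peak and values at both times had a median relative value of -0.06, with 15 below 0, and the 17 without had 0.07, with 7 below 0. Over all bins these medians were -0.08 and 0.06, with 5614 of 8857 below 0 with a KLF4 peak and 5755 of 13882 without. The difference around the 9 genes was thus close to that over all bins. Of the 43 bins valued at 0 h around the genes, 2 (4.65%, exact interval 0.57 to 15.8) had no 24 h value, against 15.2% of all such bins. By gene, 2 of 9 (Ccne1 and Cdkn1a) had a bin valued at 0 h alone, against 27.1% of genes, and none had a bin valued at 24 h alone, against 20.8%. Neighbouring bins often share a value, so bins are not independent and the intervals cover counting error only.

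Each listed bin also carries a whole number whose meaning the lists do not give, called the bin score here. Summed over the bins around the 9 genes it was 354 at 0 h and 338 at 24 h, so that 24 h held 48.8% of it, against 47.5% over all bins. E2f1 (25 and 31) and Rb1 (59 and 60) were the 2 genes with a higher sum at 24 h. The sums at 0 h and 24 h were 148 and 143 at Ccnd3, 30 and 27 at Cdkn1a, 22 and 17 at Cdkn1b, 22 and 18 at Cdk1, 21 and 20 at Ccne2, 15 and 12 at Cdk2 and 12 and 10 at Ccne1. The 24 h share was below that of all bins at 5 of 9 genes (Ccne1, Cdk2, Cdk1, Cdkn1a and Cdkn1b), against 45.8% of genes. The highest score of a single bin was 19, in the bin of Rb1 from 73230001 at 24 h (17 at 0 h), and the bin over Cdkn1a had 18 at 0 h and 15 at 24 h.

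Other genes of the cell cycle machinery were read from a list of 69, of which 59 had a bin valued at both times. Their median relative value was 0.07, with 21 below 0 and 38 above. Of all 11239 measured genes 5253 (46.7%) were below 0 and 5986 above, with a median of 0.02. Without centring 10 of the 59 were above 0, against 16.3% of all measured genes. At the 0.32 log2 threshold 1 was lower and 4 were higher, against 8.06% and 9.45% of all genes. Ccnd1 (cyclin D1) was lower, at -0.34 over 2 bins with equal values. Ccnf (cyclin F) at 0.42 ± 0.15 (SD over 5 bins), Foxm1, a factor that drives mitotic genes, at 0.36 ± 0.55 over 2 bins, the checkpoint kinase gene Chek2 at 0.33 ± 0.22 over 5 bins and Ccnb2 (cyclin B2) at 0.32 ± 0.23 over 3 bins were higher. The 4 measured genes of the A-, B- and F-type cyclins, grouped in this way after their values were seen, all had values above 0, with a median of 0.31 and a lowest value of 0.18 at Ccnb1, whereas the D- and E-type cyclin genes Ccnd3, Ccne1 and Ccne2 were all below 0. Without centring 3 of these 4 stayed above 0, and Ccnb1 had 3.90 at 0 h and 3.81 at 24 h. Of the genes for mitotic kinases and the checkpoint, 10 of 12 were above 0 (median 0.17, 5 without centring), and of the origin licensing genes 9 of 11 (median 0.04, 0 without centring). CDK phosphatases and activating or inhibiting kinases were below 0 at 6 of 7 genes, with a median of -0.04. Among them Cdk7 (-0.010) and Cdc25c (-0.005) were close to 0. E2F and DP factors were split evenly, 4 and 4. The counts by role stand beside the 46.7% of all measured genes below 0, and no difference from that share was tested. KLF4 peaks were found at 59 of the 69 genes, against 52.6% of all protein-coding genes and 74.7% of those with measurable ESC acetylation.

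**Figure D4:**
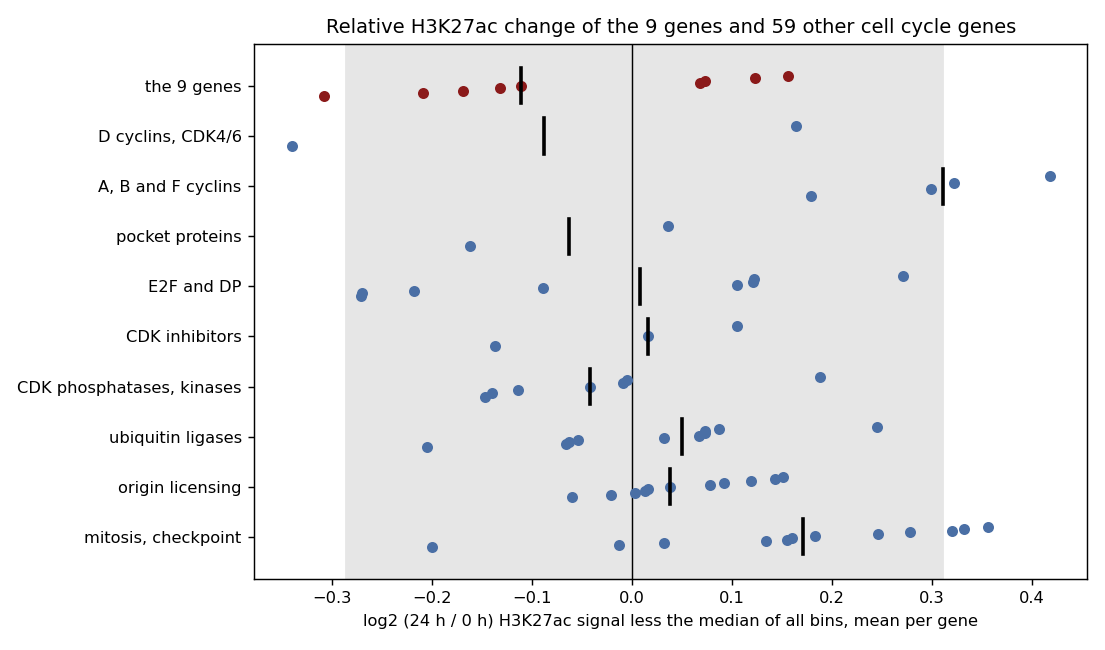
Mean relative log2 H3K27ac change per gene (24 h over 0 h, less the median of all bins) for the 9 genes (red) and 59 other cell cycle genes by role (blue), with the median of each group as a black line and the 10th to 90th percentile of all genes in grey. The A-, B- and F-type cyclins lie between 0.18 and 0.42, to the right of the 9 genes, whose highest value is 0.16.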

How the data were processed

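The authors deposited 4 lists for the ChIP groups, tied to groups by list name and to samples by title. The submitters' processing notes name mm10 and the tools MACS2, Bowtie2, bedtools and SAMtools, without roles. For the combining and scaling of replicates, the sources used here give nothing. The deposited ESC lists give per bin an H3K27ac signal of unknown normalization, a whole-number bin score of unknown meaning and marks that were not used. The deposited iPSC lists give positions only, read as BED coordinates. Values of single replicates are in none of the lists used, so there was no test and no leaving out of a replicate.

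A gene's relative value is the mean, over bins valued at both times that touch its span and 10 kb flanks, of log2 24 h over 0 h signal less the median of all such bins. SD is over bins, which are not replicates. Overlap was 1 bp, and intervals are exact (Clopper-Pearson) at 95%. RefSeq for GRCm38.p6 gave spans and promoters, and all 9 genes and 69 further genes matched by symbol. The genes, lists, motifs and the 0.32 log2 threshold were chosen with earlier results of these data known. The 9 genes are all described, and other cell cycle genes are named where past it with 2 or more bins, up to 4 each way. The bin score is a deposited score of the authors. Alternatives changed the flank, centring, runs of equal bins, threshold, peak width, overlap and motif. Python 3.11.15, numpy 2.4.6, pandas 2.3.3 and scipy 1.17.1 were used, and the calculations were tested on simulated data.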

Additional observations from a re-analysis of the deposited data

How the results depend on the processing

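No paired analysis was possible because each group was deposited as 1 list without values per replicate, and leaving out a replicate was not possible for the same reason. The count of genes past 0.32 log2, 0 as reported, was 1 (Ccne2) without flanks, with 1 bin per run of equal values and with centring on bins without KLF4, 1 (Cdk2) with start bins only, where 7 genes have a value, and 5 without centring. The median over the 9 genes, -0.11, was -0.34 without centring and -0.17 with centring on bins without KLF4. It was -0.056 with 1 bin per run of equal values, -0.044 with 25 kb flanks and -0.024 without flanks. With start bins only, over 7 genes, it was 0.0005. All but the value without centring are counted as kept below, as they lie within 1 SD over the genes (0.16), although the median came close to 0. Without centring the values were -0.071 for Rb1, -0.15 for E2f1, -0.10 for Cdkn1a and -0.16 for Cdkn1b. Signs also turned without flanks for Cdk1 (0.085) and E2f1 (-0.024), with 25 kb flanks for Ccne2 (0.062) and Cdkn1b (-0.087), and with start bins only for Cdk1 (0.071). Genes with a KLF4 peak went from 8 to 5 without flanks. KLF4 peaks on an H3K27ac peak went from 19 of 25 to 9 of 13 without flanks, 11 of 15 among peaks of at least the median width and 1 of 25 where each had to cover 50% of the other. Bins valued at 1 time alone went from 2 to 0 without flanks and 5 with 25 kb flanks. Promoters with a KLF core went from 1 to 7 with the longer core GGGNGNGG. The summary results kept their value within 1.5 times or 1 SD in 22 other cases and moved in the 13 given here. For the peak overlaps the counts were compared and not the shares. The cases kept thus include 24 of 36 with 25 kb flanks and 24 of 25 with a gap of up to 1 kb. The KLF4 peaks at start windows, a count added after the data were seen, were 6 with a peak up to 500 bases from the 300-base window (E2f1 added) and 4 with peaks of at least the median width. The cause was not tested where a setting moved a value, beyond the fewer or more bins and peaks that it takes in. Read depth is unknown, so a bin without a value is not shown to lack acetylation.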
